A study of Mus musculus with 18 samples.

Results

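The expression of Hoxb1 was induced in neural progenitors made from mouse embryonic stem cells and exposed to SAG, an agonist of Smoothened, the signal transducer of the hedgehog pathway, that gives neural tissue a ventral character. The comparison was made of the 6 neural progenitor libraries labelled as given SAG, of 18 libraries in the series. 3 of them (Hoxb1 with SAG) are labelled as expressing Hoxb1 and as treated with SAG and DOX (doxycycline), and 3 (SAG alone) as not expressing Hoxb1 and as treated with SAG. All 6 are labelled as cells of strain C57BL/6, and no age applies to these cultures. 6 further libraries of neural progenitors made without SAG, with DOX and Hoxb1 or with neither, are used below to set the Hoxb1 effects side by side. Hoxb1 and doxycycline cannot be told apart, because SAG-treated cells given doxycycline without Hoxb1 were not analysed here. Whether the libraries of a group are separate differentiations, and whether the cultures are of 1 line or clone, was not given in the sources used here, so that p-values measure the spread between these libraries, which may be technical.

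Hoxb1 is a homeodomain transcription factor of the anterior end of the Hox clusters. In the mouse hindbrain it marks rhombomere 4, the segment that gives rise to the facial branchiomotor neurons, and it binds DNA together with Pbx and Meis proteins. Retinoic acid induces anterior Hox genes, and a retinoid response element and an element bound by Hoxb1 itself control Hoxb1. Hedgehog signalling, which reaches the nucleus through Gli proteins, orders the ventral neural tube into floor plate and progenitor domains, and the Nkx2-2 domain gives rise to branchiomotor and later to serotonergic neurons in the hindbrain.

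The promoters of 4 genes that were higher with Hoxb1 are shown because they hold the letters of the joint Hox and Pbx site, TGATNNAT, and those of 2 genes that were lower because they hold TGATGNAAN, the composite site bound by C/EBP and Atf4 proteins. Each is 250 bases before to 50 bases after a RefSeq start site (build GRCm38.p6, gene strand), 5′ to 3′, and capitals mark the match on either strand. These 6 were chosen after their values were seen.
Hoxb1, chr11:96365508-96365807 (+): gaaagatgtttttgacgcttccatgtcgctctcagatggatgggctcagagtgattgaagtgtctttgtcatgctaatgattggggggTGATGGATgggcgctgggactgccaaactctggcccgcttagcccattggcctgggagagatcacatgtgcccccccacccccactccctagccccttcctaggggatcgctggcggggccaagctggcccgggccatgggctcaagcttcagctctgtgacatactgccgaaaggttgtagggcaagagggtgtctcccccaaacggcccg
Hoxa2, chr6:52164782-52165081 (-): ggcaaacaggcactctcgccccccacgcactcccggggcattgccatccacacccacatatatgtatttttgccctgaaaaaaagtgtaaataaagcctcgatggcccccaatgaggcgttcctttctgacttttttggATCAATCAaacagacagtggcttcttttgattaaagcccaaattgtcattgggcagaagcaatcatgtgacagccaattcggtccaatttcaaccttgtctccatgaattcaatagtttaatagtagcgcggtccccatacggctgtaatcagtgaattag
Lhx4, chr1:155741978-155742277 (-): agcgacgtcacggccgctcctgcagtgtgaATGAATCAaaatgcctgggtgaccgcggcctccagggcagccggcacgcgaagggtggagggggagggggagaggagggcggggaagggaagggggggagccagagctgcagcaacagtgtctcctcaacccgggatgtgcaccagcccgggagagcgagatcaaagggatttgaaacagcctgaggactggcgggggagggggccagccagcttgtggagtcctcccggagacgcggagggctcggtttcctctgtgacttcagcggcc
Stra6, chr9:58128838-58129137 (+): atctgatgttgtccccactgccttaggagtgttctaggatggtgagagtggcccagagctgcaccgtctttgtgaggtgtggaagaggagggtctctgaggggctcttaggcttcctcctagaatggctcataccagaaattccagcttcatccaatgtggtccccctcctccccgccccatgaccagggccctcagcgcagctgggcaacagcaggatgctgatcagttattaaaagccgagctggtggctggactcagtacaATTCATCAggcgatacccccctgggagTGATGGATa
Chac1, chr2:119350992-119351291 (+): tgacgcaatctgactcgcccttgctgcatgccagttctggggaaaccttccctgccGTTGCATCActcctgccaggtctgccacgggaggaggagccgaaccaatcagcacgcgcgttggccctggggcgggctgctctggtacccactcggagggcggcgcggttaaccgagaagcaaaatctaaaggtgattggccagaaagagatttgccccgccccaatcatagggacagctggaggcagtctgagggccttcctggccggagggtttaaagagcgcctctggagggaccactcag
Slc7a11, chr3:50443564-50443863 (-): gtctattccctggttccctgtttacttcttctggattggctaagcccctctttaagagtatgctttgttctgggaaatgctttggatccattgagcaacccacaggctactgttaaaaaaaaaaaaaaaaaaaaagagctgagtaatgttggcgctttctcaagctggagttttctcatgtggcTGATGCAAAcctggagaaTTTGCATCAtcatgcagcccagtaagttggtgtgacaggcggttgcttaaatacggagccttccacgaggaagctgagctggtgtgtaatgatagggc
In Hoxb1 the match began at -162 relative to the start site, in Hoxa2 at -111, in Lhx4 at -220 and in Chac1 at -194. Stra6 and Slc7a11 held 2 matches each in the windows shown. Of the other Stra6 windows, the overlapping one starting at 58129099 held the same 2 matches, and those starting at 58133825 and 58134415 held 0. TGATNNAT was held by 4.45% of 14770 windows of all tested genes, by 30 of 367 (8.17%) of genes at least 2-fold higher with Hoxb1, and by 18 of 354 (5.08%) of genes at least 2-fold lower. TGATGNAAN was held by 2.25% of all windows, 3.27% of those of the higher genes and 4.8% of those of the lower genes, and Crabp1 and Cntn2, which were higher, held it too. GACCACCCA, the letters of the Gli site, stood in 28 of 14770 windows and in 0 of the windows of higher or lower genes. Both strands were searched, windows of neighbouring start sites can overlap, and the first 2 motifs share their opening letters, so that a window may hold both. A match is not evidence that a protein binds there. Of 221 genes considered by name, 159 had a promoter in this table.

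Sequencing depth was alike in the groups, with total counts of 22610407 to 24488882 for Hoxb1 with SAG and 22682012 to 26974315 for SAG alone. Mitochondrially encoded genes took 1.25% to 1.36% of counts with Hoxb1 and 1.2% to 1.3% with SAG alone. Levels are in CPM on the TMM-scaled library size, and sizes of rises and falls given without a unit are log2 changes. Calls were made where the adjusted p lay below 0.05 (edgeR quasi-likelihood F-test, Benjamini-Hochberg over 16238 tested genes). By that rule 3483 genes rose (21.4%) and 3562 fell (21.9%) in cells with Hoxb1, and at least 2-fold 430 were higher (2.65%) and 385 lower (2.37%), 5.02% together. In either direction 43.4% were called, and the counts of called list members below are to be read beside these shares. The median log2 change of all tested genes was 0.0012, the first principal component of the 1000 most variable genes held 91% of the variance and separated the groups, and the libraries of the groups did not overlap for 50.5% of genes.

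The label of the cells was set against levels in progenitors made without SAG, which have other library numbers, so that these differences are untested and cannot be told apart from the library set. Nkx2-2 stood at 88.8 CPM with SAG alone and 8.3 CPM with neither, the floor plate factor Foxa2 at 81.8 CPM with SAG alone and 9.02 CPM with neither, and the hedgehog receptor Ptch1 at 625 CPM with SAG alone and 281 CPM with neither. The dorsal gene Pax7 stood at 0.0807 CPM with SAG alone and 13 CPM with neither. Gli1 (142 CPM with SAG alone, 158 CPM with neither) and the motor neuron progenitor factor Olig2 (32.2 CPM with SAG alone, 36.5 CPM with neither) had lower means with SAG. Among neural progenitor genes Sox2 stood at 406 ± 11.8 CPM with Hoxb1 and 427 ± 3.29 CPM with SAG alone (SD, n = 3 each) and Nes at 280 ± 6.49 CPM with Hoxb1 and 289 ± 10.1 CPM with SAG alone. Pou5f1, a pluripotency factor, was still at 89.1 ± 7.86 CPM with Hoxb1 and 137 ± 7.52 CPM with SAG alone. The blood markers Hba-a1 and Hbb-bt were at 0 counts in all 6 libraries. Other members of the list of endothelium and blood were present. The list summed to 30.7 to 33.3 CPM with Hoxb1 and 34.5 to 36.8 CPM with SAG alone. Of its 5 tested genes 2 were called lower and 1 higher, and the number called higher was 0 to 2 over the settings tried.

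Hoxb1 itself (ENSMUSG00000018973, mm10 chromosome 11, 96365752 to 96368256, plus strand) had 635, 597 and 612 CPM with Hoxb1 and SAG, against 0.519, 0.397 and 0.51 CPM with SAG alone. The groups were far apart (44355 against 35 counts in all, log2 change 10.33, SE 0.08, edgeR adjusted p = 1.79e-38). Counts per gene cannot separate the endogenous gene from the induced one. Chromosome 11, which carries Hoxb1, stood apart in these libraries. Of its 1233 tested genes at 1 CPM or more, 50.9% were called lower and 9.65% higher with Hoxb1, with a median log2 change of -0.129, while the medians of the other autosomes and of X lay between -0.0234 and 0.042. Without SAG the median of chromosome 11 was -0.0036. Small falls of genes on chromosome 11 are given below with that shift in view, and its part in them was not tested.

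**Figure D1:**
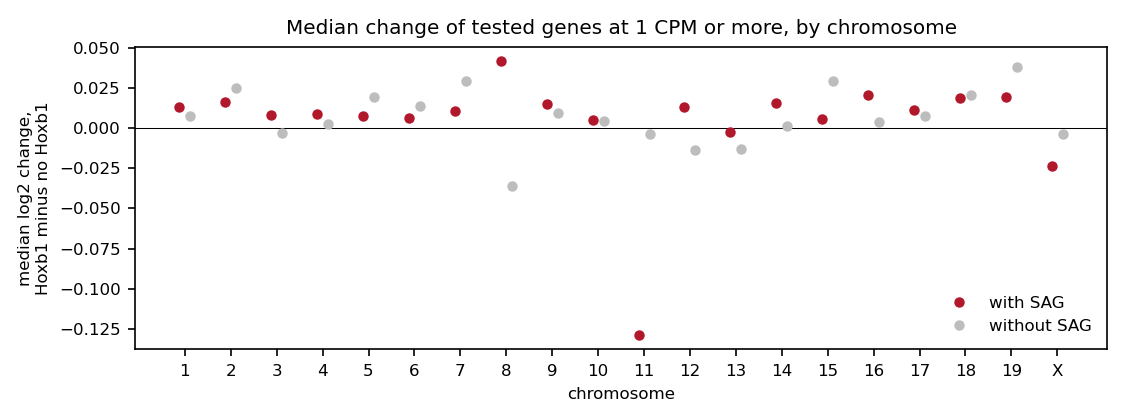
Median log2 change of tested genes with a mean of 1 CPM or more on each chromosome, Hoxb1 minus no Hoxb1, with SAG (red) and without SAG (grey). Chromosome 11 lies at -0.129 with SAG and at -0.0036 without.

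The Hox genes next to Hoxb1 rose with it. Hoxb2, the neighbour of Hoxb1 on chromosome 11 and a hindbrain patterning factor, had 77.7, 76.7 and 73.4 CPM with Hoxb1, against 2.64, 2.2 and 2.38 CPM with SAG alone. It was 31.6-fold higher (log2 change 4.98, SE 0.07, edgeR adjusted p = 1.38e-39) and the libraries of the groups did not overlap. Hoxb3 had 15.4, 17.1 and 17.6 CPM with Hoxb1, against 2.64, 2.96 and 2.89 CPM with SAG alone, and rose by 2.56 on the log2 scale (SE 0.1). Hoxb4 had 14.5, 13.6 and 13.9 CPM with Hoxb1, against 2.68, 2.42 and 2.51 CPM with SAG alone (log2 change 2.47, SE 0.11). The rise thus stood at 4.98, 2.56 and 2.47 from Hoxb2 to Hoxb4. Hoxb3os, an antisense gene that overlaps Hoxb2 and Hoxb3, had 83 to 110 CPM with Hoxb1 and 1.48 to 2.38 CPM with SAG alone. The strand setting of the counting was not given in the sources used here, so its reads cannot be told apart from those of Hoxb2 and Hoxb3.

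Hox genes of the other clusters changed less. Hoxa2, which shapes the second branchial arch and rhombomere 2, had 4.05, 5.6 and 4.9 CPM with Hoxb1, against 1.34, 1.55 and 1.57 CPM with SAG alone (log2 change 1.70, SE 0.16, adjusted p = 6.19e-12). Hoxc4 stood at 1.22 ± 0.262 CPM with Hoxb1 and 0.287 ± 0.0656 CPM with SAG alone (log2 change 2.10). Hoxd3 stood at 1.05 ± 0.344 CPM with Hoxb1 and 0.61 ± 0.13 CPM with SAG alone (log2 change 0.78, adjusted p = 0.0193), a call that was lost with DESeq2 (0.149) and when any of 4 libraries was left out (0.062 to 0.125). Hoxa3 (2.06 ± 0.0365 CPM with Hoxb1, 2.07 ± 0.119 CPM with SAG alone) was not called. Of the 9 tested Hox genes of groups 1 to 4, Hoxb1 included, 7 rose and 0 fell. Hoxb1 was the induced gene, and a gene low with SAG alone, such as Hoxc4, could pass the filter on low counts through the libraries with Hoxb1. This count therefore supports nothing by itself. Hoxa4 (0.322 CPM with Hoxb1, 0.44 CPM with SAG alone) and Hoxd1 (0.467 CPM with Hoxb1, 0.222 CPM with SAG alone) were too low to test.

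Most tested posterior Hox genes, which pattern the trunk and tail, were higher too, at low levels. Of 15 genes of groups 5 to 9, 11 passed the filter on low counts, 9 were called higher and Hoxd8 (3.02 ± 0.207 CPM with Hoxb1, 3.85 ± 0.211 CPM with SAG alone) lower, a call lost in 6 other settings. With a stricter filter on low counts 5 were called higher. Of 12 genes of groups 10 to 13, 8 passed the filter and were called higher. A gene low with SAG alone could pass the filter through the libraries with Hoxb1, so that these counts support nothing by themselves. Hoxa10 had 7.17, 6.73 and 6.88 CPM with Hoxb1, against 1.73, 1.87 and 1.19 CPM with SAG alone (log2 change 2.10, SE 0.15, adjusted p = 9.98e-16). Hoxd11 stood at 4.74 ± 0.673 CPM with Hoxb1 and 1.64 ± 0.339 CPM with SAG alone, Hoxb9 at 4.14 ± 0.36 CPM with Hoxb1 and 1.55 ± 0.108 CPM with SAG alone, and Hoxd13 at 2.87 ± 0.549 CPM with Hoxb1 and 0.713 ± 0.219 CPM with SAG alone. The 4 untested genes of groups 10 to 13 stood at 0.199 to 0.56 CPM with Hoxb1 and 0.158 to 0.418 CPM with SAG alone. The summed level of groups 5 to 9 was 22.4 to 25.4 CPM with Hoxb1 and 11.3 to 12.1 CPM with SAG alone, and that of groups 10 to 13 was 26.8 to 29.5 CPM with Hoxb1 and 7.82 to 9.17 CPM with SAG alone. Per kilobase of exon, Hoxb1 stood at 265 CPM, Hoxb2 at 23 CPM and Hoxa10 at 1.8 CPM in cells with Hoxb1.

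**Figure D2:**
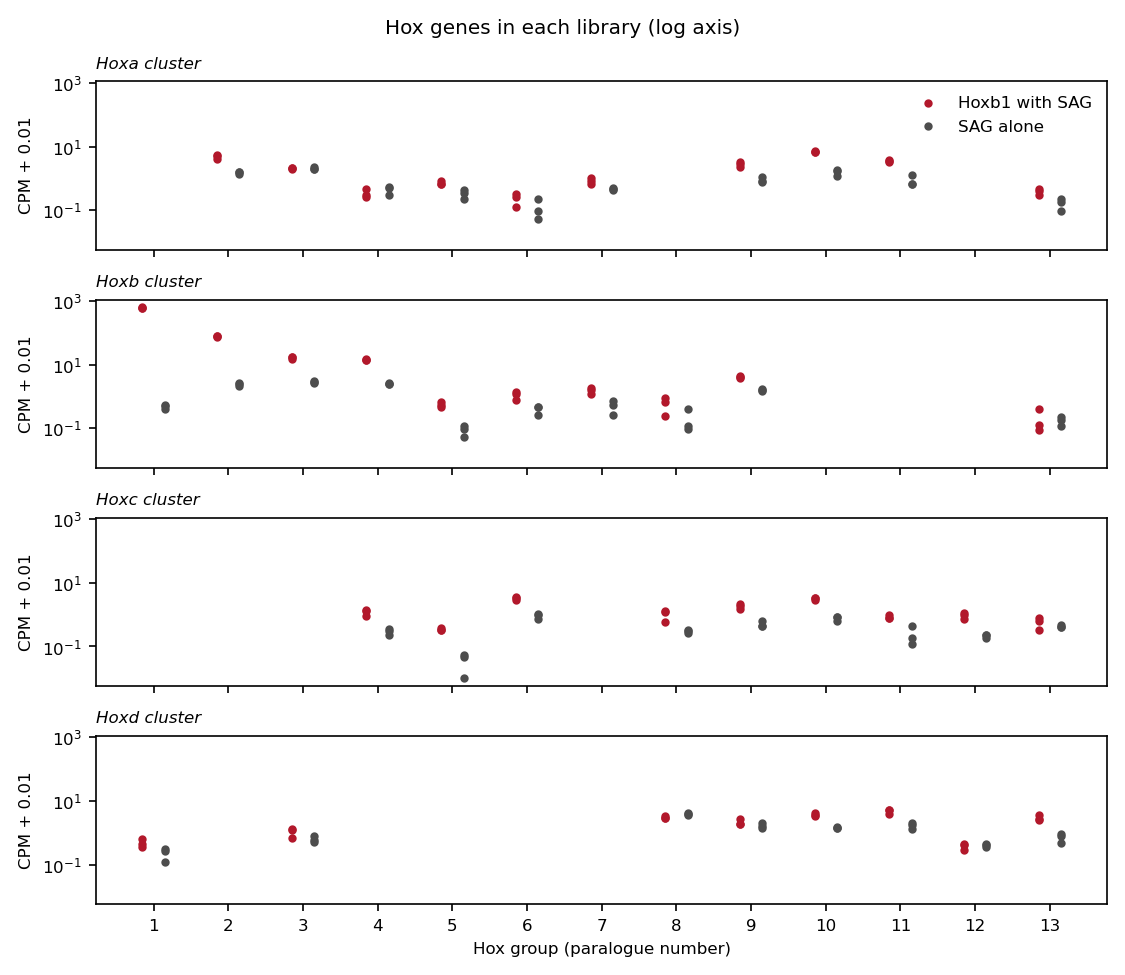
Hox genes by cluster (rows) and paralogue group (horizontal axis), with 1 point per library in CPM plus 0.01 on a log axis, Hoxb1 with SAG in red left of SAG alone in grey. Hoxb2 at 73.4 to 77.7 CPM with Hoxb1 lies far above 2.2 to 2.64 CPM with SAG alone, while no gene of groups 5 to 13 passes 7.17 CPM.

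Most DNA-binding partners of Hox proteins rose. 7 of 9 were higher and 1 lower, led by Meis1 with 150, 142 and 153 CPM with Hoxb1, against 49.3, 48.9 and 49.8 CPM with SAG alone (3.01-fold, log2 change 1.59, SE 0.04, adjusted p = 1.72e-32). Meis2 stood at 93.7 ± 2.66 CPM with Hoxb1 and 35.5 ± 0.106 CPM with SAG alone (log2 change 1.4), and Meis3, Pbx2, Pbx3, Pknox1 and Pknox2 rose by 0.22 to 0.74. Pbx4 was not called.

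Genes of retinoid handling were mostly higher, with 10 of 15 tested members called higher, 3 lower and 2 not called. Crabp1, a cytoplasmic retinoic acid binding protein, had 338, 324 and 324 CPM with Hoxb1, against 18.8, 17.6 and 18.1 CPM with SAG alone, an 18.1-fold rise (log2 change 4.18, SE 0.04, adjusted p = 3.91e-45). Its relative Crabp2 had 199, 183 and 194 CPM with Hoxb1, against 34.2, 32.8 and 31.5 CPM with SAG alone (log2 change 2.55). Stra6, the cell surface receptor for retinol carried by its plasma binding protein, stood at 26.2 ± 1.24 CPM with Hoxb1 and 6.37 ± 0.682 CPM with SAG alone (log2 change 2.04). Among the enzymes, Rdh10, which oxidises retinol (47.1 ± 0.713 CPM with Hoxb1, 19.6 ± 0.916 CPM with SAG alone), and Aldh1a3, which makes retinoic acid (10 ± 0.432 CPM with Hoxb1, 4.57 ± 0.216 CPM with SAG alone), rose, and so did Cyp26b1, which degrades it (29.1 ± 1.39 CPM with Hoxb1, 6.41 ± 0.343 CPM with SAG alone, log2 change 2.18). Of the nuclear receptors, Rara rose (129 ± 2.23 CPM with Hoxb1, 57.5 ± 2.59 CPM with SAG alone, log2 change 1.17), Rarg fell (23.3 ± 0.319 CPM with Hoxb1, 31.4 ± 1.93 CPM with SAG alone, log2 change -0.43), and Rarb was not called (1.72 ± 0.12 CPM with Hoxb1, 1.32 ± 0.18 CPM with SAG alone, log2 change 0.38). Dhrs3, which reduces retinaldehyde, fell (0.76 ± 0.19 CPM with Hoxb1, 1.96 ± 0.335 CPM with SAG alone, log2 change -1.35), as did Cyp26a1 (1.19 ± 0.13 CPM with Hoxb1, 2.18 ± 0.152 CPM with SAG alone, log2 change -0.87), whose call was lost in a fit of all 18 libraries (adjusted p = 0.072). The members thus include genes of synthesis, of degradation and of binding in the same direction.

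Regional genes of the hindbrain moved in both directions and by little. 5 of 11 tested members rose and 3 fell, with a median log2 change of 0.13. Egr2, the factor of rhombomeres 3 and 5, had 9.38, 10.4 and 9.27 CPM with Hoxb1, against 5.5, 4.97 and 4.08 CPM with SAG alone (log2 change 0.99, SE 0.11). Gbx2, of the anterior hindbrain, stood at 3.41 ± 0.391 CPM with Hoxb1 and 1.22 ± 0.29 CPM with SAG alone (log2 change 1.47). Fgf3 was lower (2.55 ± 0.156 CPM with Hoxb1, 3.92 ± 0.123 CPM with SAG alone, log2 change -0.62), and so were Epha7 (log2 change -0.40) and Irx1 (log2 change -0.21, call lost without 1 Hoxb1 library, adjusted p = 0.107).

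Of 16 tested genes of forebrain and eye, 14 fell, 11 of them at least 2-fold, and 0 rose, with a median log2 change of -1.16. Nkx2-1, which marks the ventral forebrain and hypothalamus, had 8.58, 11.6 and 9.63 CPM with Hoxb1, against 99.2, 104 and 108 CPM with SAG alone, a 10.4-fold fall (log2 change -3.38, SE 0.06, adjusted p = 4.05e-33). Otx2, which marks forebrain and midbrain, had 69.2, 71.3 and 73 CPM with Hoxb1, against 141, 146 and 151 CPM with SAG alone (log2 change -1.04). The ventral telencephalic factors Dlx1 and Dlx2 fell by 1.82 and 2.01, the eye field gene Rax fell by 2.83, and Vax1 and Vax2 were not called. At the lower levels reached, forebrain RNA was still present, at a summed 288 to 302 CPM with Hoxb1 and 729 to 761 CPM with SAG alone. In bulk RNA, fewer cells of a type and less RNA per cell cannot be told apart. Genes of midbrain and isthmus were split, with 6 of 10 higher and 3 lower. Pax8 rose (6.15 ± 0.457 CPM with Hoxb1, 0.387 ± 0.0728 CPM with SAG alone, log2 change 3.96), as did Pax2 (4.29 ± 0.194 CPM with Hoxb1, 0.557 ± 0.216 CPM with SAG alone, log2 change 2.95) and Wnt1 (60.8 ± 1.93 CPM with Hoxb1, 34.9 ± 1.08 CPM with SAG alone, log2 change 0.80), while the isthmic signal Fgf8 fell (3.23 ± 0.627 CPM with Hoxb1, 11.6 ± 1.05 CPM with SAG alone, log2 change -1.84).

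**Figure D3:**
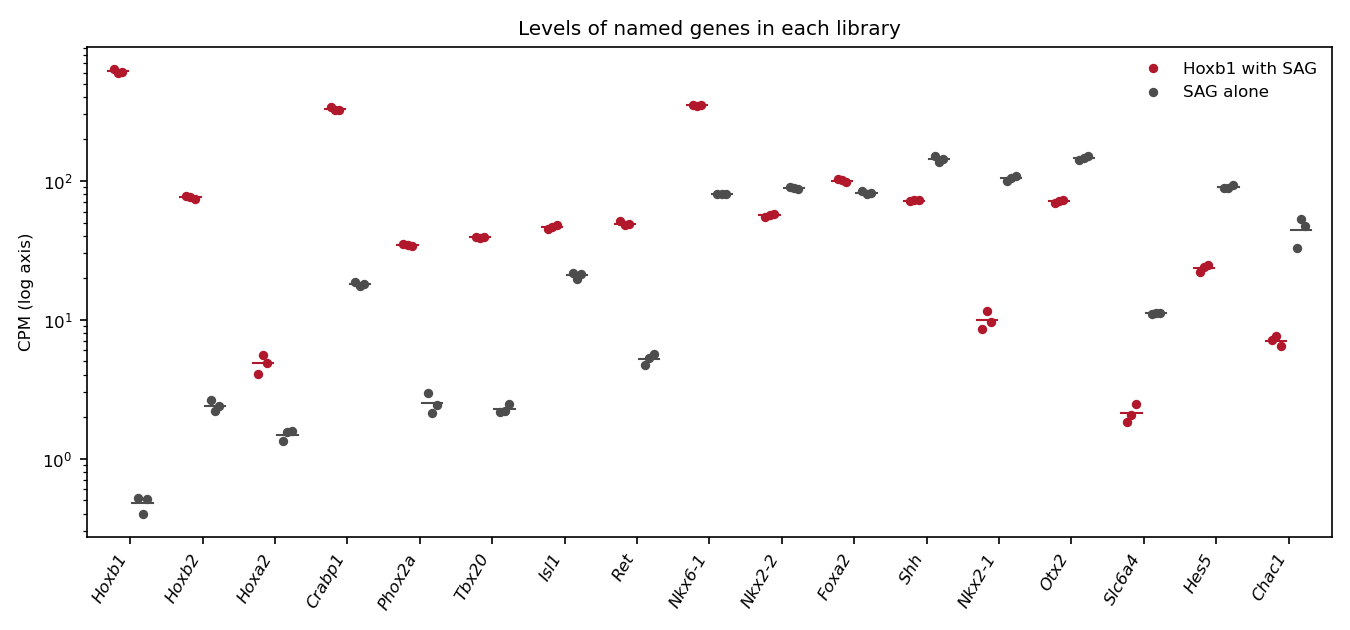
Levels of named genes in CPM on a log axis, with 1 point per library and a line at the group mean, Hoxb1 with SAG in red left of SAG alone in grey. Phox2a lies at 34.1 to 34.9 CPM with Hoxb1 and at 2.13 to 2.94 CPM with SAG alone, and Nkx2-1 at 8.58 to 11.6 CPM with Hoxb1 and 99.2 to 108 CPM with SAG alone.

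Genes of the list of branchiomotor and cholinergic neurons were mostly higher. Branchiomotor neurons are the cranial motor neurons of the branchial arches, and some members, such as Isl1 and Chat, are not particular to them. 8 of 10 tested members rose, 7 of them at least 2-fold, and 0 fell, with a median log2 change of 2.93. Phox2a, a homeodomain factor of cranial motor neurons, had 34.9, 34.7 and 34.1 CPM with Hoxb1, against 2.94, 2.13 and 2.42 CPM with SAG alone (log2 change 3.80, SE 0.09, adjusted p = 6.13e-32). Tbx20, a T-box factor of facial motor neurons, had 39.5, 38.4 and 39.6 CPM with Hoxb1, against 2.16, 2.2 and 2.46 CPM with SAG alone (log2 change 4.10, SE 0.09, adjusted p = 3.62e-32). No library of either group lay near the other group for either factor.

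Isl1, a factor of all motor neurons, had 45.1, 46.1 and 48.3 CPM with Hoxb1, against 21.7, 19.7 and 21.4 CPM with SAG alone (log2 change 1.15, SE 0.06, adjusted p = 2.04e-20). Ret, the receptor for Gdnf family ligands, had 51, 47.8 and 48.8 CPM with Hoxb1, against 4.72, 5.33 and 5.65 CPM with SAG alone (log2 change 3.23). Chat, which makes acetylcholine, had 5.81, 7.29 and 6.39 CPM with Hoxb1, against 0.173, 0.036 and 0.17 CPM with SAG alone (log2 change 5.67), and the intermediate filament gene Prph had 10.8, 11.2 and 10.6 CPM with Hoxb1, against 1.99, 1.69 and 1.57 CPM with SAG alone (log2 change 2.63). Tbx2 rose by 0.24, and Tbx3 (15.8 ± 1.13 CPM with Hoxb1, 14.4 ± 1.17 CPM with SAG alone) and the choline transporter Slc5a7 (2.38 ± 0.335 CPM with Hoxb1, 2.18 ± 0.415 CPM with SAG alone) were not called. Cntn2, an axonal adhesion protein of young neurons including motor neurons, had 196, 199 and 192 CPM with Hoxb1, against 18.1, 20.2 and 20.1 CPM with SAG alone (log2 change 3.33).

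Of the genes of somatic motor neurons, 4 of 6 were called higher, Isl1 above among them, and Foxp1 lower (71.9 ± 1.33 CPM with Hoxb1, 89.1 ± 0.907 CPM with SAG alone, log2 change -0.31). Lhx3 and Isl2, low with SAG alone, could pass the filter on low counts through the libraries with Hoxb1, so that this count supports nothing by itself. Lhx4 had 24.4, 21.1 and 23.2 CPM with Hoxb1, against 1.04, 1.23 and 0.977 CPM with SAG alone (log2 change 4.39, SE 0.11). Lhx3 stayed low (0.471 ± 0.0626 CPM with Hoxb1, 0.0545 ± 0.0657 CPM with SAG alone, log2 change 2.98), Isl2 stood at 1.35 ± 0.0835 CPM with Hoxb1 and 0.459 ± 0.023 CPM with SAG alone, and Mnx1, a defining factor of somatic motor neurons, was not called at 1.36 ± 0.0896 CPM with Hoxb1 and 0.963 ± 0.0908 CPM with SAG alone (log2 change 0.48, adjusted p = 0.078).

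Of 9 tested genes of the list of serotonergic neurons and the Gata lineage, which holds Gata2, Gata3 and Tal1, 5 fell and 1 rose. The serotonin transporter gene Slc6a4 had 1.85, 2.06 and 2.47 CPM with Hoxb1, against 11, 11.1 and 11.2 CPM with SAG alone, a 5.21-fold fall (log2 change -2.38, SE 0.12, adjusted p = 6.01e-21). Tph2, which makes serotonin in neurons, had 2.02, 2.78 and 2.83 CPM with Hoxb1, against 8.44, 8.25 and 7.44 CPM with SAG alone (log2 change -1.65), and Fev, the serotonergic factor known as Pet1, had 3.12, 3.26 and 3.36 CPM with Hoxb1, against 7.75, 7.32 and 8.75 CPM with SAG alone (log2 change -1.28). The vesicular transporter Slc18a2 (log2 change -0.55) and Gata2 (log2 change -0.26) fell as well, Gata3, Ddc and Tal1 were not called, and Lmx1b rose by 0.15.

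Hedgehog pathway genes moved in both directions, with 4 of 12 tested members higher, 2 lower and 6 not called. Among all tested genes 21.4% were called higher and 21.9% lower, so that these counts set the pathway little apart. The median log2 change was -0.00021, and the summed level, the largest share of it from Ptch1, was 1436 to 1457 CPM with Hoxb1 and 1461 to 1482 CPM with SAG alone. The ligand Shh had 71.1, 72.2 and 72.9 CPM with Hoxb1, against 152, 137 and 144 CPM with SAG alone (log2 change -1.0, SE 0.04, adjusted p = 1.58e-24). The target and receptor Ptch1 had 630, 611 and 617 CPM with Hoxb1, against 618, 637 and 620 CPM with SAG alone, and was not called (log2 change -0.01, SE 0.04). Gli1, a transcriptional target and effector, had 167, 205 and 189 CPM with Hoxb1, against 132, 154 and 142 CPM with SAG alone (log2 change 0.39, SE 0.08, adjusted p = 0.00373). Hhip, a target that binds the ligand, was not called (33.3 ± 1.75 CPM with Hoxb1, 29.9 ± 0.53 CPM with SAG alone, adjusted p = 0.0969), though it was in 4 other settings (0.0171 to 0.0232). The co-receptors Boc (29.1 ± 1.75 CPM with Hoxb1, 18.6 ± 1.05 CPM with SAG alone) and Gas1 (21.9 ± 0.673 CPM with Hoxb1, 12.6 ± 0.742 CPM with SAG alone) rose, Gli3 fell by 0.27, Sufu rose by 0.11, a call lost in 5 of the settings tried, and Smo, Cdon and Gli2 were not called.

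Within the ventral domains the progenitor genes moved apart. Nkx6-1, a homeodomain factor of the ventral progenitors that give rise to motor neurons, had 353, 348 and 351 CPM with Hoxb1, against 80.6, 80.3 and 80.6 CPM with SAG alone, a 4.36-fold rise (log2 change 2.12, SE 0.03, adjusted p = 2.9e-38). Nkx6-2, its relative, was lower (61.1 ± 0.642 CPM with Hoxb1, 109 ± 0.568 CPM with SAG alone, log2 change -0.83). Nkx2-2 had 55.3, 56.2 and 57.7 CPM with Hoxb1, against 90.9, 88.3 and 87.1 CPM with SAG alone (log2 change -0.65), while Nkx2-9, also of the most ventral progenitors, rose (39.2 ± 2.11 CPM with Hoxb1, 27.6 ± 1.22 CPM with SAG alone, log2 change 0.50). Olig2 had 31.7, 32.4 and 32 CPM with Hoxb1, against 30.6, 32.3 and 33.8 CPM with SAG alone and was not called. Dbx1, of progenitors at intermediate height, had 9.9, 8.46 and 9.22 CPM with Hoxb1, against 31.9, 31.1 and 33.7 CPM with SAG alone (log2 change -1.81), and Dbx2, Pax6 and Olig1 were lower by 1.00, 0.37 and 1.07. In all 2 of 10 rose and 6 fell.

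Floor plate genes fell with 1 exception. 8 of 9 were lower and Foxa2 was higher, with 102, 100 and 97.9 CPM with Hoxb1, against 84, 79.8 and 81.7 CPM with SAG alone (log2 change 0.29, SE 0.04). Spon1, a secreted floor plate protein, had 192, 180 and 187 CPM with Hoxb1, against 416, 414 and 419 CPM with SAG alone (log2 change -1.16). Foxa1 stood at 39.3 ± 2.34 CPM with Hoxb1 and 71.3 ± 0.757 CPM with SAG alone (log2 change -0.86), and Ntn1, the netrin of the ventral midline, which lies on chromosome 11, at 709 ± 17.4 CPM with Hoxb1 and 1275 ± 26.8 CPM with SAG alone (log2 change -0.85). Slit1 (log2 change -0.10) and Ferd3l (log2 change -0.67) lost their call in 1 and 2 of the settings tried. Dorsal genes were split, 4 of 15 higher and 7 lower. Pax7 had 3.08 ± 0.349 CPM with Hoxb1 and 0.0807 ± 0.0853 CPM with SAG alone (log2 change 5.15), whereas Gsx1 (3.81 ± 0.392 CPM with Hoxb1, 11.9 ± 1.47 CPM with SAG alone), Gsx2 and the 5 Zic genes were lower.

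**Figure D4:**
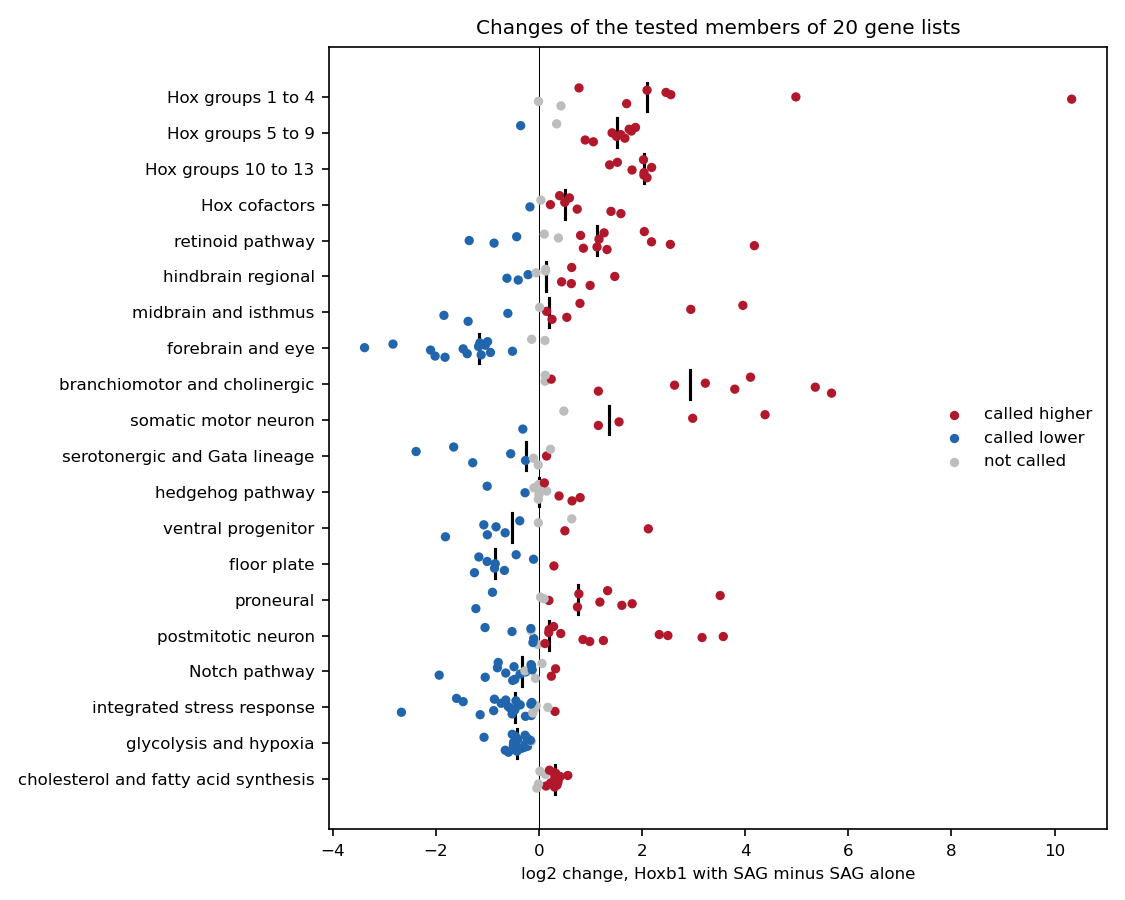
Log2 change (Hoxb1 with SAG minus SAG alone) of the tested members of 20 gene lists, 1 point per gene, red where called higher, blue where called lower and grey where not called, with a black bar at each list's median. The median is 2.93 for branchiomotor and cholinergic genes, -1.16 for forebrain and eye and -0.846 for floor plate.

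12 of 19 tested genes of postmitotic neurons rose and 5 fell, and their summed level was 2154 to 2226 CPM with Hoxb1 and 1284 to 1322 CPM with SAG alone. The neurofilament genes led. Nefm had 286, 278 and 271 CPM with Hoxb1, against 24.5, 22.2 and 23.4 CPM with SAG alone (11.9-fold, log2 change 3.58, SE 0.04), and Nefl stood at 356 ± 14.5 CPM with Hoxb1 and 39.8 ± 3.53 CPM with SAG alone (log2 change 3.17). Nhlh1 (26.3 ± 0.772 CPM with Hoxb1, 4.62 ± 0.288 CPM with SAG alone) and Gap43 (170 ± 4.77 CPM with Hoxb1, 71.3 ± 0.994 CPM with SAG alone) rose. The general neuronal tubulin Tubb3 moved little (303 ± 4.5 CPM with Hoxb1, 248 ± 8.63 CPM with SAG alone, log2 change 0.29), Dcx was not called, and the synaptic gene Syt1 fell (18.1 ± 0.755 CPM with Hoxb1, 37.4 ± 1.41 CPM with SAG alone, log2 change -1.04). Which neurons carry these counts cannot be read from bulk RNA.

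Of 12 tested proneural and early neuronal factors, 8 rose and 2 fell. Neurod4 had 25.7, 26.6 and 26.8 CPM with Hoxb1, against 2.12, 2.56 and 2.17 CPM with SAG alone (log2 change 3.52, SE 0.09). Ebf1, Ebf2 and Ebf3 rose by 1.61, 1.81 and 1.18. Neurog2 fell (7.29 ± 0.324 CPM with Hoxb1, 13.6 ± 0.503 CPM with SAG alone, log2 change -0.90). Of 18 Notch pathway genes, which keep neural progenitors from differentiating, 13 fell and 2 rose, with a median of -0.32. Hes5, a Notch target, had 22.1, 23.9 and 24.7 CPM with Hoxb1, against 88.6, 88.8 and 92.8 CPM with SAG alone (log2 change -1.93, SE 0.04, adjusted p = 3.99e-32). Dll1 (88.3 ± 5.65 CPM with Hoxb1, 126 ± 1.47 CPM with SAG alone), Nrarp (59.9 ± 1.02 CPM with Hoxb1, 104 ± 5.09 CPM with SAG alone) and Dner (21.6 ± 1.56 CPM with Hoxb1, 44.4 ± 0.868 CPM with SAG alone) were lower too, while Hes1 and Jag2 were higher. Of 11 neural progenitor genes 7 fell and 2 rose, among them Sox1 (103, 102 and 105 CPM with Hoxb1, against 220, 210 and 212 CPM with SAG alone, log2 change -1.05), and Sox2 was not called (log2 change -0.07, adjusted p = 0.0659) but was in 5 other settings (0.0104 to 0.0433). The list's summed level was 3419 to 3516 CPM with Hoxb1 and 4012 to 4138 CPM with SAG alone. Genes of replication and mitosis moved little (22 tested, median -0.038), with 3 called higher and 5 lower, beside 21.4% and 21.9% of all tested genes. The number called higher was 0 or 1 in 16 of the settings tried and the number called lower was 9 with upper-quartile scaling.

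Axon guidance genes changed in both directions, 12 of 22 higher and 8 lower. Beside Cntn2 above, Sema3c (67.8 ± 1.32 CPM with Hoxb1, 14.9 ± 0.84 CPM with SAG alone, log2 change 2.18), Sema3d (26.4 ± 0.924 CPM with Hoxb1, 6.57 ± 0.357 CPM with SAG alone, log2 change 2.01) and the semaphorin receptor Plxna4 (22.1 ± 1.29 CPM with Hoxb1, 5.69 ± 0.19 CPM with SAG alone, log2 change 1.95) rose, and Robo2 rose by 1.19. Slit2 fell (183 ± 4.15 CPM with Hoxb1, 318 ± 3.05 CPM with SAG alone, log2 change -0.80), as did Ntn1 and Cntn1.

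Other signalling lists held changes in both directions. Of 19 tested FGF pathway genes 5 rose and 8 fell, led by Fgf5 (2.6 ± 0.245 CPM with Hoxb1, 10.1 ± 1.43 CPM with SAG alone, log2 change -1.96). Of 22 Wnt pathway genes 6 rose and 9 fell, led by Wnt7b (21.1 ± 0.728 CPM with Hoxb1, 69.2 ± 2.64 CPM with SAG alone, log2 change -1.72), with the Wnt inhibitor Sfrp1 higher (283 ± 9.61 CPM with Hoxb1, 168 ± 3.31 CPM with SAG alone). Of 18 BMP and TGF-beta genes 5 rose, Bmp6 most (7.88 ± 1.45 CPM with Hoxb1, 1.6 ± 0.0794 CPM with SAG alone, log2 change 2.29), and 9 fell, Id4 most (31.9 ± 1.49 CPM with Hoxb1, 102 ± 2.47 CPM with SAG alone, log2 change -1.69), with 5 called lower by DESeq2.

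Markers of other cell types that such cultures can hold moved as well. Of 12 neural crest genes 5 rose and 3 fell (summed 202 to 213 CPM with Hoxb1 and 207 to 210 CPM with SAG alone). Tfap2a and Tfap2b were up by 1.26 and 1.14, Sox9 was lower (log2 change -0.825) and Sox10 was not called. Of 16 mesenchyme and matrix genes 8 rose and 4 fell (3018 to 3242 CPM with Hoxb1, 2996 to 3045 CPM with SAG alone), among them Postn (131 ± 5.6 CPM with Hoxb1, 42.5 ± 0.537 CPM with SAG alone, log2 change 1.62). Of 8 tested lateral and intermediate mesoderm genes 5 rose, such as Hand2 (6.29 ± 0.354 CPM with Hoxb1, 1.5 ± 0.271 CPM with SAG alone), and 2 fell, such as Kdr (log2 change -0.882). Their list summed to 34.6 to 35.8 CPM with Hoxb1 and 32.9 to 35.1 CPM with SAG alone. Of 10 tested neuromesodermal genes 6 fell, among them T (10.3 ± 0.486 CPM with Hoxb1, 30.8 ± 0.493 CPM with SAG alone), and 0 rose. Of 18 pluripotency genes 10 fell and 4 rose, the count of higher genes being 1 to 2 in 7 of the settings tried, at a summed 788 to 839 CPM with Hoxb1 and 1053 to 1150 CPM with SAG alone. Of 7 tested glial genes 5 fell, such as Aldh1l1 (14.4 ± 0.963 CPM with Hoxb1, 35.6 ± 0.541 CPM with SAG alone), and 1 rose. The part of such cells in the results above was not tested.

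Of 23 genes of the integrated stress response, driven by Atf4, 18 fell and 1 rose, with a median log2 change of -0.46. Chac1, which breaks down glutathione, had 7.13, 7.62 and 6.43 CPM with Hoxb1, against 32.7, 53.5 and 47.3 CPM with SAG alone (log2 change -2.66, SE 0.22, adjusted p = 9.67e-06). Trib3, a pseudokinase, had 5.94, 6.12 and 6.43 CPM with Hoxb1, against 14.5, 21.8 and 19.2 CPM with SAG alone (log2 change -1.59), and the cystine transporter Slc7a11 stood at 2.99 ± 0.451 CPM with Hoxb1 and 8.19 ± 1.2 CPM with SAG alone (log2 change -1.47). For Chac1 and Trib3 the libraries with SAG alone were more spread than those with Hoxb1, without overlap between the groups. Atf4 itself, with a known translational control, stood at 198 ± 3.38 CPM with Hoxb1 and 283 ± 15.8 CPM with SAG alone (log2 change -0.52), and Atf5 was not called. Of 19 genes of glycolysis and hypoxia 18 fell and 0 rose (median -0.42), among them the glucose transporter Slc2a1 (198, 194 and 192 CPM with Hoxb1, against 418, 405 and 397 CPM with SAG alone, log2 change -1.06) and Ldha (409 ± 12 CPM with Hoxb1, 576 ± 12.8 CPM with SAG alone). Of 18 genes of cholesterol and fatty acid synthesis 14 rose and 0 fell (median 0.31), all under 2-fold, Lss most (228 ± 11 CPM with Hoxb1, 155 ± 4.55 CPM with SAG alone). Of 15 p53 targets 11 rose and 1 fell, Eda2r most (159 ± 1.76 CPM with Hoxb1, 106 ± 1.56 CPM with SAG alone, log2 change 0.58).

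Some genes with large rises and falls belonged to no list. Gnat3, the G protein subunit gustducin of taste cells, had 967 counts over the 3 libraries with Hoxb1 and 2 over the 3 with SAG alone, a ratio of 491 (95% Clopper-Pearson interval 136 to 4059, counting error only). Mybpc1, a myosin binding protein, had 59, 75.8 and 73 CPM with Hoxb1, against 0.822, 1.33 and 1.74 CPM with SAG alone (log2 change 5.73). The scavenger receptor gene Stab1 had 15.6, 18.7 and 19.2 CPM with Hoxb1, against 0.433, 0.36 and 0.383 CPM with SAG alone (log2 change 5.49), and Crhbp, a binding protein of corticotropin-releasing hormone, had 13.2, 12.2 and 10.6 CPM with Hoxb1, against 0.692, 0.469 and 0.425 CPM with SAG alone (log2 change 4.50). Hprt, the purine salvage enzyme gene on X, had 17.2, 14.9 and 14.7 CPM with Hoxb1, against 0.606, 0.649 and 0.637 CPM with SAG alone (log2 change 4.61). The parental line and the genomic site of the induced Hoxb1 were not given in the sources used here, and whether the Hprt locus itself was altered was not tested. Among the falls, the calcium pump gene Atp2a3 on chromosome 11 had 2.99, 4.51 and 3.56 CPM with Hoxb1, against 37.2, 37.2 and 33.9 CPM with SAG alone (log2 change -3.28), and Corin, a protease best known from the heart, had 6.74, 6.77 and 6.47 CPM with Hoxb1, against 36, 38.9 and 36.3 CPM with SAG alone (log2 change -2.48).

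Set beside progenitors made without SAG, the Hoxb1 effect was in part of another size. The effects use separate libraries, and their difference cannot be told apart from that of the library sets, which have separate library numbers and depths. Without SAG 462 genes were at least 2-fold higher (2.85%) and 493 lower (3.04%) with Hoxb1. 185 genes were at least 2-fold higher in both settings, 43% of the genes higher with SAG and 40% of those higher without. 82 were lower in both, 21.3% of the genes lower with SAG and 16.6% of those lower without. Of the genes at least 2-fold changed with SAG, 62.8% of the higher and 44.7% of the lower ones were called in the same direction without SAG at any size, and 15 and 14 were at least 2-fold changed in the opposite direction. The difference of the effects itself was called for 852 genes at 2-fold or more (5.25%), 420 toward a higher effect with SAG (2.59%) and 432 toward a lower one (2.66%). At any size, its adjusted p lay under 0.05 for 5759 genes (35.5%).

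Hoxb1 itself stood at 614 ± 19.2 CPM with SAG and 336 ± 17.2 CPM without SAG in the induced cells, so that the effects rest on unequal levels of Hoxb1. Of the 10 tested branchiomotor and cholinergic genes, 6 had a called difference. Phox2a had log2 effects of 3.80 with SAG and 0.55 without (difference 3.25, adjusted p = 1.01e-15), Tbx20 of 4.10 and 0.06 (4.04) and Isl1 of 1.15 and -0.23 (1.39). Outside that list, the axon guidance gene Cntn2 had effects of 3.33 and -0.77 (difference 4.09). Of the 9 tested Hox genes of groups 1 to 4, 7 had a called difference, in both directions. Hoxb2 stood at 75.9 ± 2.25 CPM with Hoxb1 and 2.41 ± 0.222 CPM without Hoxb1 in SAG, and at 69.5 ± 3.39 CPM with Hoxb1 and 0.759 ± 0.0498 CPM with neither when no SAG was given, effects of 4.98 and 6.5 (difference -1.52). Hoxb3 (-2.22), Hoxa2 (-1.91), Hoxb4 (-1.35) and Hoxa3 (-1.31) differed in the same direction, and Hoxc4 (2.86) and Hoxd3 (2.32) in the other. Hes5 had effects of -1.93 with SAG and 1.11 without (difference -3.04), and the Notch list held 9 of 18 called differences. Nkx2-1 had effects of -3.38 and -0.91, and Slc6a4 of -2.38 and 0.72. Chac1 had effects of -2.66 and -2.90 and Lhx4 of 4.39 and 4.23, neither of them called different. Of the 23 genes of the integrated stress response, to which Chac1 belongs, 12 had a called difference, beside 5.25% of all tested genes. Trib3 (1.88) and Slc7a11 (1.52) were among them. Crabp1 had effects of 4.18 and 4.49. Its difference of -0.315 had an adjusted p under 0.05 in the settings tried and was not called because it lay under 2-fold.

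**Figure D5:**
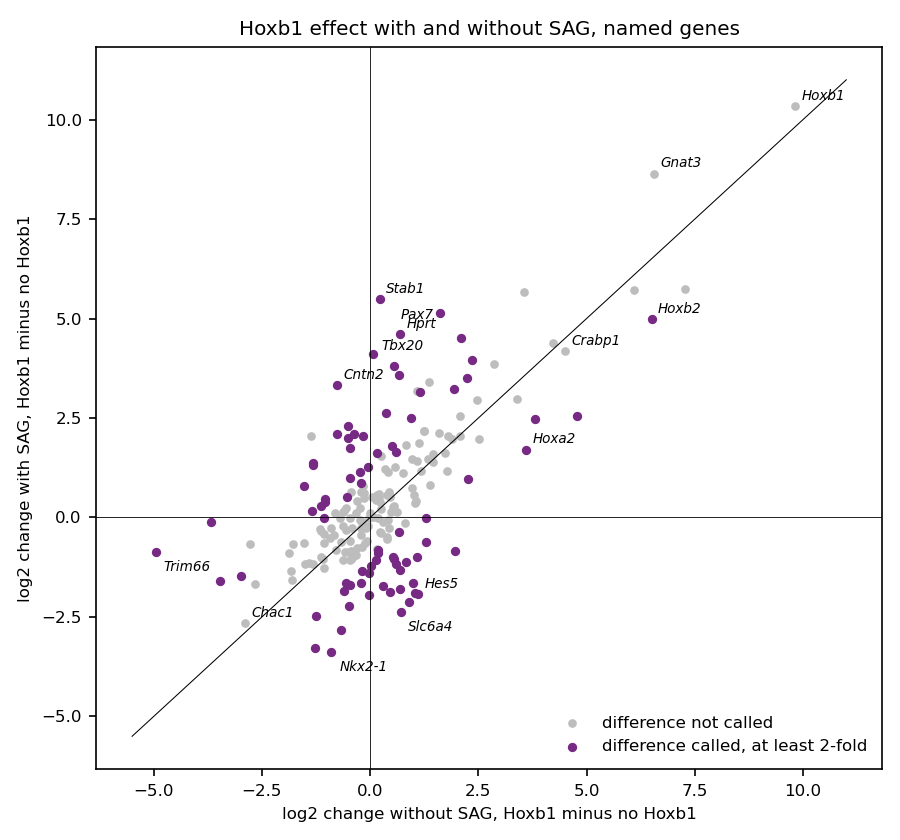
Log2 effect of Hoxb1 with SAG (vertical) against that without SAG (horizontal) for the tested named genes, purple where the difference was called at 2-fold or more, with the line of equal effects. Hoxb1 and Crabp1 lie near the line, Tbx20 and Cntn2 above it, and Hes5, Slc6a4 and Nkx2-1 below it.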

How the data were processed

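Per the labels, polyadenylated RNA was made into strand-specific libraries with 15 PCR cycles. Per the submitters' processing notes, bcl2fastq 1.8.2, featureCounts 1.4.6 and the mm10 genome were used. Not given in the sources used here were the aligner, annotation release, strand setting and handling of multi-mapping reads. The authors deposited raw counts per Ensembl gene for 37224 genes, with no normalization, beside summed exon lengths, which were used for levels per kilobase. Symbols were found for 35449 of the genes, in tables of gene names and GENCODE vM21.

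Groups were taken from the labels. The 12 neural progenitor libraries were fitted together in R 4.3.3 with edgeR 4.0.16 and 1 mean per group (filterByExpr, TMM, estimateDisp, robust glmQLFit), which left 8 residual degrees of freedom and a common biological coefficient of variation of 2.91%. Genes were called at a Benjamini-Hochberg adjusted p under 0.05, and differences between the Hoxb1 effects with and without SAG at 2-fold or more besides. CPM are on the TMM-scaled library size, errors are SD over 3 libraries, and the SE of a log2 change was derived from that change and its F statistic. Promoter windows of chromosome 18 were not used. Scripts were tested on simulated data. Precision was limited by 3 libraries a group and by depth for genes under about 1 CPM, and intervals cover counting error only.

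Library numbers run from 2533 to 2538 with SAG and from 7390 to 7395 without, each range holding both Hoxb1 states. Replicates of a group differed by more than sampling noise. The members and the 45 gene lists were chosen with earlier results of these data known. Named genes are Hoxb1, the 8 largest rises and falls among called genes of at least 10 CPM in the higher group whose libraries do not overlap (predicted genes and pseudogenes left out), the 5 largest differences in each direction, up to 3 called members of each list, and every member of the lists on Hox groups 1 to 4, Hox cofactors, retinoids, hindbrain, hedgehog, ventral, floor plate, motor and serotonergic genes, with 10 further genes. Some named genes are not reported here. Other genes named were chosen after their values were seen. Alternatives were DESeq2 1.42.0, upper-quartile scaling, other filters, other sets of libraries, a replicate block and each library left out.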

Additional observations from a re-analysis of the deposited data

Results flagged for a closer look

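The values given here are for named genes whose Hoxb1 effect differed between progenitors with SAG and without SAG, by the test of the difference itself (edgeR, adjusted p under 0.05 and at least 2-fold, a rule met by 5.25% of all tested genes). Each value is the log2 effect of Hoxb1 with SAG minus that without. The SAG and no SAG libraries are separate library sets of unequal depth, and the sets cannot be told apart from SAG.

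Among Hox genes the differences were -1.91 for Hoxa2, -1.31 for Hoxa3, -1.52 for Hoxb2, -2.22 for Hoxb3 and -1.35 for Hoxb4, but 2.86 for Hoxc4, 2.32 for Hoxd3, 1.29 for Hoxc6, 2.22 for Hoxc8, 2.47 for Hoxa10 and 2.21 for Hoxc10. The Hoxc10 call was lost when any of 3 libraries was left out (lowest 1.64, adjusted p = 0.205), the Hoxc6 call likewise (adjusted p = 0.0528 to 0.0708), and the Hoxa10 and Hoxa3 calls without 1 library each (1.96, adjusted p = 0.0656, and -0.979). Among retinoid genes they were 2.65 for Aldh1a1, 1.07 for Aldh1a2, 1.31 for Rdh10 and -1.16 for Dhrs3. The Dhrs3 call was lost in 7 settings (adjusted p = 0.0519 to 0.0965), and Aldh1a2 came below 2-fold in 3 (lowest 0.894). Hindbrain genes gave 1.47 for Egr2 and -1.92 for Fgf3. More anterior genes gave -2.47 for Nkx2-1, -2.16 for Rax, -1.73 for Dlx6os1, 1.6 for Pax8 and -1.23 for Fgf8. The Rax call was lost without 1 library (adjusted p = 0.119) and the Fgf8 call in a fit of all 18 libraries (0.141).

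Among ventral genes the differences were 1.43 for Gli1, 1.51 for Hhip, 1.05 for Olig2, 1.44 for Foxa2, -1.75 for Spon1, -2.5 for Dbx1, -2.08 for Dbx2 and -1.05 for Pax6. Branchiomotor and cholinergic genes gave 3.25 for Phox2a, 4.04 for Tbx20, 1.39 for Isl1, 1.28 for Ret and 2.27 for Prph. Serotonergic genes gave -3.1 for Slc6a4 and -1.43 for Tph2, a call lost when any of 3 libraries without SAG was left out (adjusted p = 0.0518 to 0.102). Dorsal genes gave 3.54 for Pax7, -2.63 for Gsx1 and -2.33 for Gsx2. Gli1 and Foxa2 were higher with Hoxb1 in SAG and lower with Hoxb1 without SAG.

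Neuronal and Notch genes gave 1.29 for Neurod4, 1.45 for Ebf1, -1.07 for Neurog2, 2.02 for Nefl, 2.9 for Nefm, 1.55 for Nhlh1, 4.09 for Cntn2, 2.53 for Sema3d, -2.95 for Slc32a1, -3.04 for Hes5 and -1.6 for Dner. Other signalling and lineage genes gave -1.92 for Fgf5, -2.01 for Wnt7b, -1.3 for Wnt7a, 2.8 for Bmp6, -1.22 for Id4, -1.0 for Sox9, 1.06 for Thy1, -1.37 for Dnmt3b, 1.5 for Cdh5, -1.99 for Aldh1l1, -1.23 for Aqp4, -1.1 for Cdh8, -1.96 for Rtl1 and -1.51 for Peg10. The Cdh5 call was lost in 4 settings, at 0.966 (adjusted p = 0.167) without library 2 of the cells with Hoxb1 and no SAG, and Sox9 came below 2-fold in 7 settings (-0.966 to -0.998). Neurog2 above and Arc below came below 2-fold without 1 library each (-0.977 and 0.989). Stress, metabolic and immediate early genes gave 1.88 for Trib3, 1.52 for Slc7a11, 3.57 for Atf5, -1.21 for Slc2a1, 2.7 for Egr3 and 1.04 for Arc. The genes outside these groups gave 5.28 for Stab1, 3.91 for Hprt, 2.4 for Crhbp, 4.09 for Trim66, -2.0 for Atp2a3, -1.23 for Corin, -3.01 for Prelp and -2.81 for Bhlhe41.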

How the results depend on the processing

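No result changed direction as a call. Over the 20 alternatives, the one that leaves out chromosome 11 having been added after the data were seen, 2796 to 3898 genes were called higher and 2914 to 4119 lower, 382 to 543 and 327 to 497 of them at least 2-fold, and over the 19 of them that hold libraries without SAG, 363 to 447 and 382 to 460 genes had a called difference of effects. With 1 library left out the counts were 2818 to 3568 and 3115 to 3782, 422 to 480 and 376 to 437, and 402 to 446 and 404 to 450. Without chromosome 11 they were 3355 higher and 2929 lower. Upper-quartile scaling moved the median change by -0.025 on the log2 scale. Of 217 tested named genes, 202 kept their call for the effect with SAG and 189 for the difference in every setting that gave an adjusted p, and 77 of 90 list counts stayed within 1.5 times. Where a call changed, the cause was not tested.

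Deviations of same-numbered libraries with SAG correlated at 0.155, 0.131 and 0.0017, and those of differently numbered ones at -0.151 to 0.0335. These values do not settle whether the numbers pair the samples, and the main fit took them as unpaired. With a replicate block 3898 genes were higher and 3859 lower, 432 and 385 of them at least 2-fold, and 4 named genes changed their call for the effect with SAG. Depth limits genes near or below 1 CPM, among them most posterior Hox genes.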

Other observations

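Hprt, whose rise with Hoxb1 is given above, was lower in every neural progenitor library than in the neuromesodermal progenitors of the same series. In CPM of total counts it stood at 14.8 to 17.2 with Hoxb1 and SAG, 0.617 to 0.667 with SAG alone, 5.93 to 7.64 with Hoxb1 without SAG and 3.68 to 4.36 with neither. Among neuromesodermal progenitors it stood at 100.5 to 110 in Hoxb1-null cells and 92.8 to 97.4 in wild-type cells. Gnat3 had 7 to 10 counts per library with Hoxb1 without SAG and 0 with neither, and 0 in all 6 neuromesodermal progenitor libraries.

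Trim66 and Atf5 had called differences of the Hoxb1 effect with wide gaps in the libraries without SAG. With SAG, Trim66 stood at 1.23 ± 0.0756 CPM with Hoxb1 and 2.21 ± 0.726 CPM with SAG alone (SD, n = 3 each). Without SAG it stood at 7.45 ± 1.34 CPM with Hoxb1 and 232.6 ± 42.6 CPM with neither. With SAG, Atf5 stood at 48.3 ± 2.16 CPM with Hoxb1 and 52.3 ± 4.43 CPM with SAG alone, and without SAG at 61.7 ± 2.04 CPM with Hoxb1 and 793 ± 82.5 CPM with neither.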
